A study of Homo sapiens with 45 samples.

Results

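The NKX genes encode homeodomain transcription factors, and 8 of them that lie outside chromosome 14 were followed here: NKX2-2, NKX2-3, NKX2-4, NKX2-5, NKX2-6, NKX3-2, NKX6-1 and NKX6-2. A pair of contacting DNA fragments on the same chromosome (a cis pair) was taken as theirs when either fragment lay within 1000 bp of an annotated end of the gene. This gave 163 of the 152688 cis pairs listed, and the 8 genes are 8 of 9948 protein-coding genes with a pair of this kind. The rule that assigns pairs to genes uses no score. Poised-enhancer capture Hi-C (PECHi-C) joins fragments that lie together in fixed nuclei, after cutting with the enzyme DpnII, and enriches those that hold a poised enhancer, called baits. It was run on HNES1 cells, an established human embryonic stem cell line, on day 5 of their change from naive to primed pluripotency. Cells carried UNC6852 at 2.5 µM, UNC1999 at 1 µM or the solvent DMSO from 24 h before day 0, with the medium renewed daily. No genetic change was made, and all cells were in the same transition. Each condition had 15 libraries, made of 3 biological replicates with 4 technical libraries in batch 1 and 1 in batch 2. The deposited table held 1 CHiCAGO score per pair and condition, pooled over all 15 libraries. Replicates could not be compared and nothing was tested, so every comparison below sets pooled profiles side by side. The doses differ between the compounds, so their strengths are not compared. No expression was measured, so the labelled cell state could not be checked against marker genes.

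NK2-class factors pattern the ventral neural tube, heart and gut, the NK3-class factor NKX3-2 (BAPX1) acts in cartilage and the axial skeleton, and NK6-class factors act in the ventral neural tube and the pancreas. In pluripotent cells such genes are mostly silent, with CpG-rich promoters held by Polycomb repressive complex 2 (PRC2), which methylates histone H3. UNC6852 is a degrader that removes the EED subunit of PRC2, and UNC1999 blocks its catalytic subunits EZH1 and EZH2. A CHiCAGO score measures how far the reads joining 2 fragments exceed a background model that falls with distance. Scores of 5 and above counted as calls, and every listed pair had reached this in at least 1 profile. Being listed thus required a high score somewhere, and for a pair called in only 1 profile a difference from the others is built in.

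The sequence at the gene starts is shown for 4 genes whose fragments carry most of the pairs or a described cut site. RefSeq windows (GRCh38.p14) run from 250 bases before to 50 after the start, are written 5′ to 3′ on the gene's strand, and carry each CG pair in capitals. They lie at chr20:21522640-21522939 (minus strand) for NKX2-2, chr20:21397477-21397776 (minus) for NKX2-4, chr4:13544459-13544758 (minus) for NKX3-2 and chr10:99532692-99532991 (plus) for NKX2-3. Of these windows, only that of NKX2-3 overlaps a fragment of the gene's cis pairs. The NKX2-2, NKX2-4 and NKX3-2 windows lie outside the contacting fragments, so they describe the gene starts alone.
NKX2-2: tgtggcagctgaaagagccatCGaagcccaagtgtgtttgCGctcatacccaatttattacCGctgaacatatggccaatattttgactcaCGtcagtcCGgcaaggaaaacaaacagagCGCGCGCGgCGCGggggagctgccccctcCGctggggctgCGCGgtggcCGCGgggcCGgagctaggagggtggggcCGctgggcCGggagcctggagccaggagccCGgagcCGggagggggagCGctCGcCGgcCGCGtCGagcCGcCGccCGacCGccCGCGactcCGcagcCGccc
NKX2-4: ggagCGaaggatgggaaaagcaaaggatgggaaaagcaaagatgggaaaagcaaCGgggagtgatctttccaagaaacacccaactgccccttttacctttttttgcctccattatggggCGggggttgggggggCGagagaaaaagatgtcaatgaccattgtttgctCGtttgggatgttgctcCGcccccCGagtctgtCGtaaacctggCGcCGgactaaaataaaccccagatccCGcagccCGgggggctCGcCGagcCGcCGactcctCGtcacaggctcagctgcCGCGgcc
NKX3-2: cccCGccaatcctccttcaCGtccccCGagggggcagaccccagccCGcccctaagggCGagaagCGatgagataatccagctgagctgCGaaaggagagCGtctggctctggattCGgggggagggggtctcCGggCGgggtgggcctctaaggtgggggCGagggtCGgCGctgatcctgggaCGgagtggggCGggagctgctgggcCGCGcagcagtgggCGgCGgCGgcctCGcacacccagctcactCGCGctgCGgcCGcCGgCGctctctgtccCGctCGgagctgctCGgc
NKX2-3: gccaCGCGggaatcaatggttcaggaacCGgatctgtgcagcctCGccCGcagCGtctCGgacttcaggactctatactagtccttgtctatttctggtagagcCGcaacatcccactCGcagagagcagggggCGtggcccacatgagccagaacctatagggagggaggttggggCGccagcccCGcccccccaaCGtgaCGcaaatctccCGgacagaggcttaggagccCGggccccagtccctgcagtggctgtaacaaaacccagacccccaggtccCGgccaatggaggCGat
The NKX2-2 window held 35 CG pairs and that of NKX3-2 31, against a median of 14 over 35116 RefSeq windows of the same length. NKX2-4 had 19 and NKX2-3 had 18. The letters GATC, which DpnII cuts, occurred in 41.7% of all windows. In the NKX2-3 window the G of GATC is base 31, at position 99532722 of chromosome 10, next to the last base of the listed fragment chr10:99528069-99532721. AAGTG, the core letters that NK2-class factors prefer, was searched on both strands and stood at base 30 of the NKX2-2 window and, on the reverse strand, at base 191 of the NKX6-1 window (not shown); 43.1% of all windows held it. TAATTA, the letters many homeodomains bind, was in 0 of the 6 windows of 5 members that matched the table, and in 4.84% of all windows.

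At the 8 genes, 87 pairs were called in UNC6852 cells, 65 in UNC1999 cells and 70 in DMSO cells, of 163 listed. Over all cis pairs the called shares were 46.1% in UNC6852, 42.3% in UNC1999 and 42.4% in DMSO. Most pairs were called in a single profile: 121 of 163, with 77.5% over all cis pairs. A further 25 were called in 2 profiles and 17 in all 3, the last kind making up 8.33% of all cis pairs. Of these 17 pairs, 13 belonged to NKX3-2, 2 to NKX2-2, 2 to NKX6-2 and 1 to NKX2-4, with 1 pair shared by NKX2-2 and NKX2-4. Called pairs at NKX2-3, NKX2-5, NKX2-6 and NKX6-1 were never called in all 3.

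**Figure D1:**
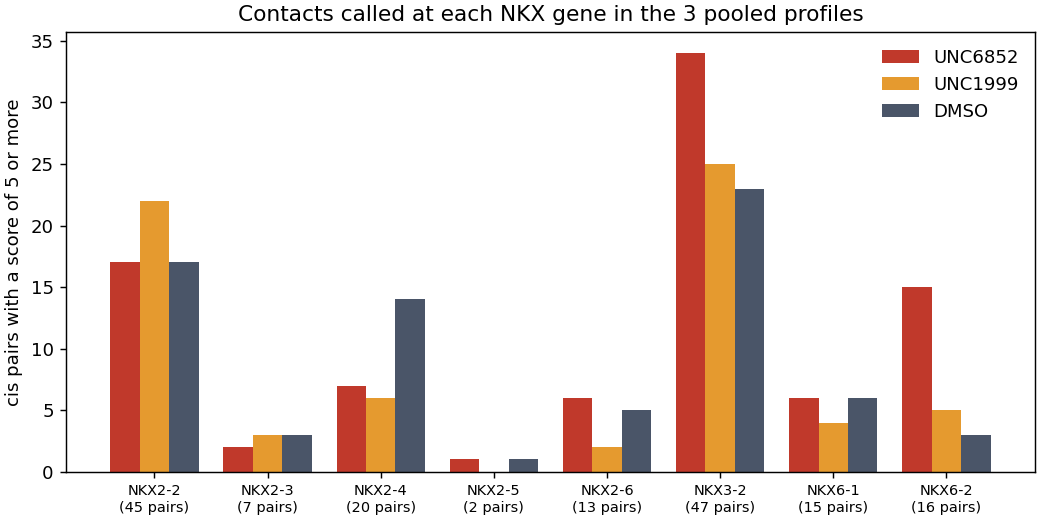
Cis pairs with a CHiCAGO score of 5 or more (vertical axis, number of pairs) at each of the 8 NKX genes in the pooled UNC6852, UNC1999 and DMSO profiles; the number of listed pairs stands under each gene. NKX3-2 had the most calls in every profile, with 34 in UNC6852, 25 in UNC1999 and 23 in DMSO, and NKX6-2 had 15, 5 and 3.

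Of the 70 pairs called in DMSO cells, 28 were also called in UNC6852 cells (40%, exact Clopper-Pearson 95% interval 28.5% to 52.4%) and 22 in UNC1999 cells (31.4%, 20.9% to 43.6%). These intervals cover counting error only and treat neighbouring pairs as independent. Over all cis calls of DMSO the shares were 31.4% for UNC6852 and 29.3% for UNC1999. Between the compounds, 26 of 87 UNC6852 calls were also called in UNC1999 cells (29.9%) and 26 of 65 UNC1999 calls in UNC6852 cells (40%), against 29.1% and 31.7% over all cis pairs. NKX3-2 carried the members' shares: without it, 9 of 47 DMSO calls were shared with UNC6852 (19.1%, 9.15% to 33.3%) and 8 of 47 with UNC1999 (17.0%, 7.65% to 30.8%). Scores were compared as asinh(score), which keeps zeros and has no unit, always as treated minus DMSO. The median pair differed by 0.17 in UNC6852 and by -0.02 in UNC1999, with 0.021 and 0 over all cis pairs. Without NKX3-2 the medians were 0 in UNC6852 and -0.02 in UNC1999. The score was higher than in DMSO for 86 pairs and lower for 70 in UNC6852, and higher for 73 and lower for 84 in UNC1999.

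NKX contacts were long, but not at every gene. Pairs of 0.5 to 2 Mb made up 57.7% of those listed for the 8 genes (94 pairs), and 19.9% of all cis pairs. Of the 94, 31 came from NKX2-2 and 29 from NKX3-2, whereas NKX2-6 had 12 of 13 pairs and NKX6-2 11 of 16 at 100 to 500 kb. Pairs of 100 to 500 kb were 36.2% of the NKX pairs and 64.5% of all cis pairs, and those under 100 kb were 1.84% and 8.29%. Beyond 2 Mb lay 7 NKX pairs (4.29%, against 7.38%). In the 0.5 to 2 Mb class, 15 NKX pairs were called in all 3 profiles, a state that 4.13% of all cis pairs of this class reached. Here UNC6852 shared 22 of 44 DMSO calls and UNC1999 shared 16, with 19.9% and 18% over all cis calls of the class. NKX3-2 held 13 of those 15 pairs. Without it, 2 of 65 pairs of the class were called in all 3 (3.08%), and UNC6852 shared 6 of 27 DMSO calls (22.2%) and UNC1999 3 of 27 (11.1%). The 163 pairs had 140 different partner fragments, of which 71 lay in no annotated gene (50.7%), 34 overlapped a protein-coding gene and 11 reached within 1000 bp of an end of one.

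**Figure D2:**
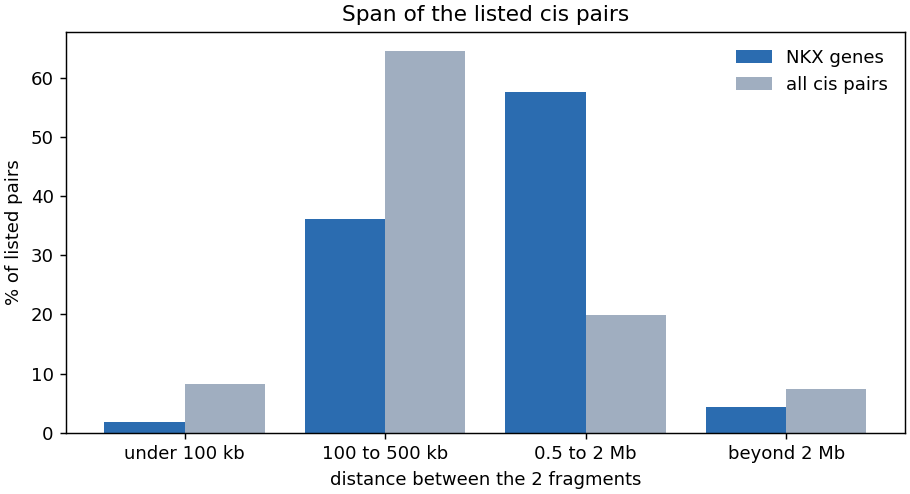
Share of listed pairs (vertical axis, percent) in 4 classes of distance between the 2 fragments (horizontal axis), for the 163 pairs of the NKX genes and for all 152688 cis pairs. The NKX pairs peak at 0.5 to 2 Mb with 57.7%, where all cis pairs have 19.9%.

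NKX2-2 (chr20:21511017-21522689) specifies ventral interneuron progenitors in the neural tube and is needed in pancreatic beta cells. Its neighbour NKX2-4 (chr20:21395365-21397526) is a close relative of the thyroid and forebrain factor NKX2-1. NKX2-2 had 45 pairs from 3 baits just upstream of its start and 2 other fragments. Calls at NKX2-2 numbered 17 in UNC6852, 22 in UNC1999 and 17 in DMSO, and 36 of the 45 pairs were called in a single profile. Mean asinh scores were 1.67 in UNC6852, 1.58 in UNC1999 and 1.53 in DMSO, which gave differences of 0.14 and 0.05. About as many pairs were higher as lower: 21 higher and 22 lower in UNC6852, and 23 higher and 21 lower in UNC1999. The difference for UNC6852 was -0.08 over the 7 pairs whose scores averaged 5 or more.

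The partners of NKX2-2 fell mainly into 3 regions. The first, chr20:20819245-20901556, lies 625 to 702 kb away in a stretch between RALGAPA2 and KIZ with no protein-coding gene, and held 17 pairs. There, 7 pairs were called in UNC6852, 7 in UNC1999 and 6 in DMSO, and 0 in all 3. The highest scores in this region were 6.86 in UNC6852, 9.02 in UNC1999 and 10.3 in DMSO, each on a different pair. The DMSO maximum, a pair 635 kb long, scored 0 in UNC6852 and 0.014 in UNC1999, the largest negative difference at NKX2-2 for both compounds. The largest positive difference in UNC1999 was a pair 836 kb long into the body of RALGAPA2, which scored 0 in UNC6852, 7.60 in UNC1999 and 0 in DMSO.

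The second region lies about INSM1, which encodes a zinc-finger factor of neuroendocrine differentiation, 1136 to 1148 kb from NKX2-2. Its strongest pair joins the bait chr20:20365437-20366547 to the fragment chr20:21505881-21510316 beyond the 3′ end of NKX2-2. It scored 10.1 in UNC6852 cells, 6.06 in UNC1999 cells and 14.4 in DMSO cells, called in all 3 and the highest mean score of NKX2-2. The pair whose partner reached the end of INSM1 itself scored 5.07 in UNC6852, 1.20 in UNC1999 and 1.26 in DMSO. The other INSM1 pairs of NKX2-2, 2 in number, were called in 1 profile each.

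The third region, chr20:22567524-22586380, spans FOXA2 and the long non-coding LINC00261 on the other side of NKX2-2, 1047 to 1078 kb away. FOXA2 is the forkhead factor of the floor plate and the endoderm. Of its 8 pairs with NKX2-2, 4 were called in UNC6852, 4 in UNC1999 and 2 in DMSO. The bait chr20:22570566-22571020 in LINC00261 met 2 NKX2-2 fragments. With the fragment beyond the 3′ end it scored 11.1 in UNC6852, 7.18 in UNC1999 and 4.98 in DMSO. With chr20:21519895-21522240 inside NKX2-2 it scored 5.72 in UNC6852, 7.36 in UNC1999 and 0.59 in DMSO. Both pairs were thus called in both treated profiles and lay below 5 in DMSO, the first of them only just. Pairs with a FOXA2 end did not share this: 1 scored 5.36 in UNC6852 and 0 in UNC1999 and DMSO, and another scored 1.82 in UNC6852, 0 in UNC1999 and 6.58 in DMSO. The largest positive difference in UNC6852 at NKX2-2 was with LINC00237, 403 kb away, at 9.95 in UNC6852, 2.42 in UNC1999 and 0 in DMSO. A pair of the same partner with the fragment inside NKX2-2 ran the other way, at 0.27 in UNC6852, 0.37 in UNC1999 and 6.18 in DMSO.

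NKX2-4 had fewer calls after either compound: 7 in UNC6852 and 6 in UNC1999, against 14 in DMSO. Its 20 pairs had median scores of 4.25 in UNC6852, 4.05 in UNC1999 and 5.66 in DMSO, with overlapping ranges (0 to 7.06, 0 to 10.4 and 0 to 10.1). Mean asinh scores were 1.79 in UNC6852, 1.81 in UNC1999 and 2.16 in DMSO, so the differences were -0.38 and -0.35. In UNC6852 15 of 20 pairs were lower and in UNC1999 14 of 20. Of the 1565 genes with at least 10 pairs, 7.86% lay below NKX2-4 in UNC6852 and 12.3% in UNC1999. Of the 20 pairs, 9 entered the list through DMSO alone, 4 through UNC6852 alone and 1 through UNC1999 alone. Part of the lower treated scores and calls is therefore built into the list. Over the 8 pairs whose scores averaged 5 or more the UNC1999 difference was -0.02, and with NKX2-4 at the other end of the bait's pair alone (5 pairs) the UNC6852 difference was 0.37.

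Long contacts of NKX2-4 reached the same region without a protein-coding gene as those of NKX2-2. Within chr20:20836288-20868459, 10 pairs of 530.3 to 559 kb had 3 calls in UNC6852, 2 in UNC1999 and 7 in DMSO. Leaving aside the pairs that join the genes to each other, NKX2-2 and NKX2-4 shared 7 partner fragments, which is 20% of the 35 of NKX2-2 and 50% of the 14 of NKX2-4, and 6 of the 7 lay in this region. At chr20:20836288-20841304, the pair from the bait chr20:21397875-21398447 scored 4.20 in UNC6852, 7.33 in UNC1999 and 7.49 in DMSO. From the bait chr20:21395436-21396270 the same partner scored 6.41 in UNC6852, 4.58 in UNC1999 and 7.56 in DMSO. The largest NKX2-4 score in UNC1999 was also here, at 3.58 in UNC6852, 10.4 in UNC1999 and 4.05 in DMSO. Where a partner was met from several NKX2-4 fragments, the pairs moved to the same side of DMSO at 5 of 5 partners in UNC6852 and 4 of 5 in UNC1999. At NKX2-2, 2 of 6 partners did so for each compound. These counts are not alike, since every NKX2-4 partner was met from 2 fragments and some NKX2-2 partners from 3. Most NKX2-4 pairs were also lower than in DMSO, which alone favours the same side. Fragments of a gene share the pooled profile and are not replicates.

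NKX2-4 and NKX2-2 also touched each other. Both NKX2-4 baits were paired with the fragment beyond the 3′ end of NKX2-2, at 6.35 in UNC6852, 7.39 in UNC1999 and 7.80 in DMSO (112 kb) and at 2.83 in UNC6852, 6.72 in UNC1999 and 7.07 in DMSO (109.9 kb). UNC6852 cells had the lowest score of the 3 in both pairs, and the first was called in all 3. Another pair of NKX2-4, with chr20:21517852-21518283 inside NKX2-2, scored 4.30 in UNC6852, 4.30 in UNC1999 and 10.1 in DMSO. The adjoining fragment chr20:21517574-21517851 scored 5.51 in UNC6852, 6.28 in UNC1999 and 3.81 in DMSO, above DMSO in both treated profiles, unlike its neighbour. NKX2-4 pairs about FOXA2 were called in a single profile each, 1 at 5.61 in UNC6852 and 0 elsewhere, and 1 at 5.01 in DMSO and 0 elsewhere.

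**Figure D3:**
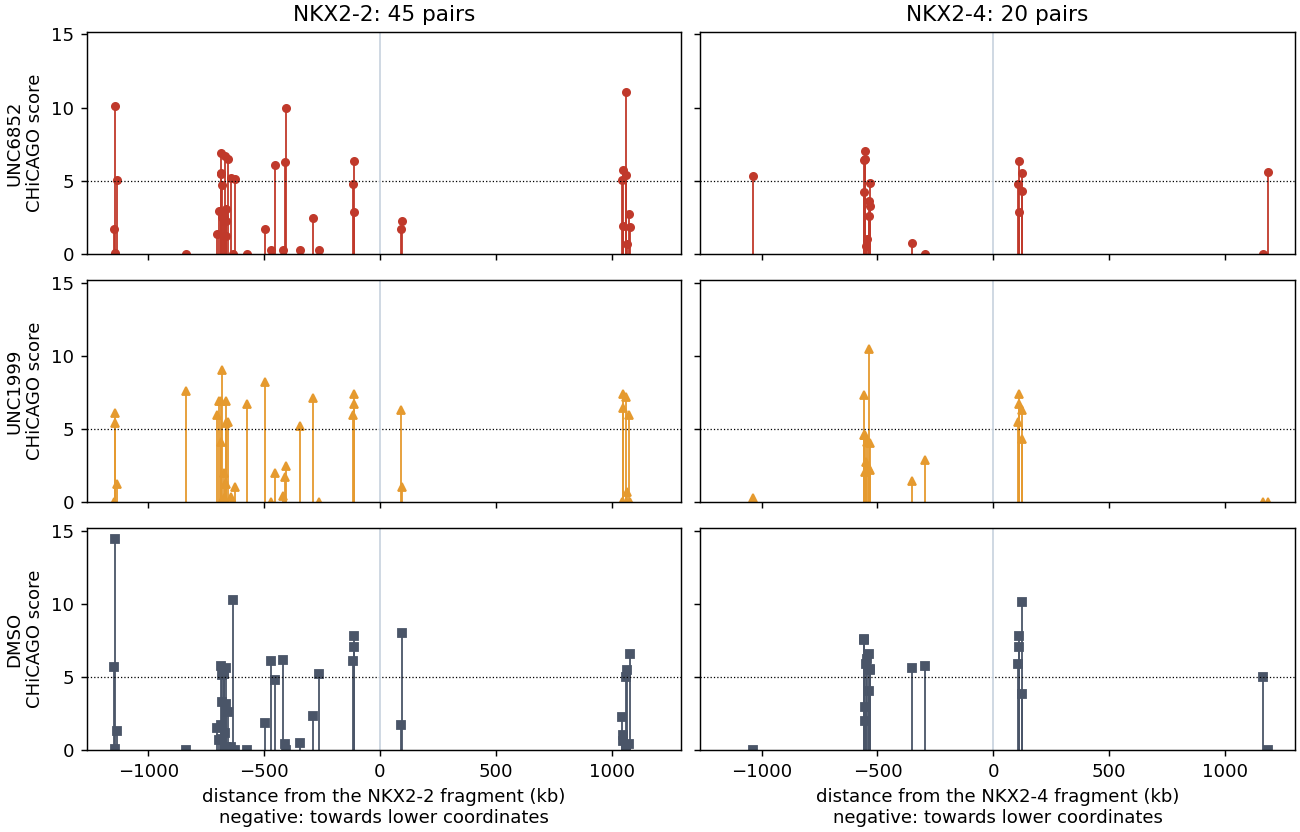
CHiCAGO scores (vertical axes) of the 45 pairs of NKX2-2 (left) and the 20 pairs of NKX2-4 (right) by distance in kb, negative towards lower coordinates, in the UNC6852, UNC1999 and DMSO profiles from top to bottom. The dotted line marks a score of 5. Groups of pairs stand at the RALGAPA2 side (17 pairs for NKX2-2 and 10 for NKX2-4) and beyond 1000 kb, and the heights differ between profiles.

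NKX6-1 (chr4:84491985-84499292), a factor of motor neuron progenitors and beta cells, had 15 pairs from 3 baits. Calls numbered 6 in UNC6852, 4 in UNC1999 and 6 in DMSO, and only 1 of the 15 pairs was called in 2 profiles. That pair, 573 kb long and ending at chr4:83921145-83927457 in no annotated gene, scored 5.43 in UNC6852, 0.64 in UNC1999 and 16.5 in DMSO. It was the highest score of NKX6-1 and its largest negative difference in UNC1999, at -2.90. Its mean asinh scores were 1.14 in UNC6852, 1.23 in UNC1999 and 1.40 in DMSO. The differences of -0.25 and -0.17 rest on few values, since 8 pairs stood at 0 in UNC6852, 4 in UNC1999 and 6 in DMSO. With gene ends widened to 5000 bp (39 pairs) both turned, to 0.42 and 0.19. Partners about ABRAXAS1, a DNA repair scaffold, were called in DMSO alone: from 2 baits they scored 0 in UNC6852, 2.51 or 0 in UNC1999, and 5.62 or 7.62 in DMSO. Of the pairs beyond 2 Mb, 4 were at NKX6-1, among them 1 with an end of the neuronal membrane protein gene GPM6A, which scored 0 in UNC6852, 8.58 in UNC1999 and 0 in DMSO.

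NKX6-2 (chr10:132783181-132786147) acts in ventral neural progenitors and in oligodendrocytes, and showed the largest positive difference in UNC6852 among the members with at least 3 pairs. Its 16 pairs scored 3.98 to 8.57 in UNC6852 (median 5.90), 0.11 to 8.09 in UNC1999 (median 3.90) and 0 to 7.81 in DMSO (median 1.88). Calls numbered 15 in UNC6852, 5 in UNC1999 and 3 in DMSO. UNC6852 shared all 3 DMSO calls, and 10 pairs were called in UNC6852 alone. Mean asinh scores were 2.48 in UNC6852, 1.77 in UNC1999 and 1.43 in DMSO, which gave differences of 1.05 and 0.34. Compared with DMSO, 15 of 16 pairs were higher in UNC6852 and 12 of 16 in UNC1999, while 50.8% and 47.9% of all cis pairs were. The UNC6852 difference lay above that of 99.6% of the 1565 genes with at least 10 pairs. A positive difference of 0.5 or more was seen in 18.3% of genes with at least 3 pairs for UNC6852 and in 15.7% for UNC1999. Since 10 of the 16 pairs entered the list through UNC6852 alone, part of this is built into the list. Over the 4 pairs whose scores averaged 5 or more the differences were 0.17 and -0.26.

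Both baits of NKX6-2 were higher in UNC6852. The 5 pairs of chr10:132781403-132783571 were all called in UNC6852 and none in UNC1999 or DMSO, with differences of 1.56 in UNC6852 and 0.12 in UNC1999. All 5 thus entered the list through UNC6852 alone, so the sign of the UNC6852 difference at this bait is built in. The 10 pairs of the adjoining bait chr10:132783572-132784256 had 9 calls in UNC6852, 5 in UNC1999 and 3 in DMSO, with differences of 0.72 and 0.34. The partners lay 249.7 to 579 kb away on both sides, in or near STK32C, PWWP2B, ADGRA1, KNDC1 and TUBGCP2. The strongest, in the kinase gene STK32C at 553 kb, scored 8.57 in UNC6852, 6.65 in UNC1999 and 7.24 in DMSO and was called in all 3. A fragment by PWWP2B, 391 kb away, was the other such pair, with 7.47 in UNC6852, 6.94 in UNC1999 and 6.04 in DMSO. In the gamma-tubulin complex gene TUBGCP2, a fragment 514 kb away scored 6.94 in UNC6852, 2.37 in UNC1999 and 0 in DMSO, the largest positive difference in UNC6852. The pair that was lower than DMSO in UNC6852, in PWWP2B at 371 kb, scored 6.73 in UNC6852, 1.84 in UNC1999 and 7.81 in DMSO. PWWP2B also held the largest positive difference in UNC1999, at 3.98 in UNC6852, 8.09 in UNC1999 and 1.22 in DMSO. The pair with an end of DPYSL4 scored 6.12 in UNC6852, 0.11 in UNC1999 and 2.23 in DMSO. The same 16 pairs also fall within 1000 bp of an end of the neighbouring gene INPP5A, an inositol phosphatase gene, so the values belong to NKX6-2 and INPP5A alike and cannot be told apart.

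NKX3-2 (chr4:13540830-13547744) gave the most regular pattern. Of its 47 pairs, 46 came from the bait chr4:13548332-13548819, just beyond the upper-coordinate end of the gene. Every partner lay towards lower coordinates, 250.3 to 873 kb away, in the stretch beyond RAB28 with no protein-coding gene under the partners. Calls numbered 34 in UNC6852, 25 in UNC1999 and 23 in DMSO. UNC6852 shared 19 of the 23 DMSO calls (82.6%, exact interval 61.2% to 95.05%) and UNC1999 14 (60.9%, 38.5% to 80.3%). Mean asinh scores were 2.44 in UNC6852, 2.20 in UNC1999 and 2.13 in DMSO, with differences of 0.31 and 0.08. Higher scores than in DMSO were found for 30 of 47 pairs in UNC6852 and 22 of 47 in UNC1999. The difference for UNC6852 lay above that of 79.8% of genes with at least 10 pairs. Of the 47 pairs, 13 entered the list through UNC6852 alone, 9 through UNC1999 alone and 3 through DMSO alone. Part of the higher treated scores and calls is therefore built into the list. Over the 21 pairs whose scores averaged 5 or more the differences were 0.23 and -0.07.

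Recurrent NKX3-2 contacts, called in all 3 profiles, formed 2 peaks, apart from 1 pair in the region chr4:12923207-12961433 (589.9 to 623 kb away). In chr4:12712015-12743558, 808 to 834 kb away, 6 adjoining fragments had 6 calls in UNC6852, 4 in UNC1999 and 4 in DMSO, and 4 were called in all 3. Its summit, chr4:12727691-12732947, scored 23.3 in UNC6852, 20.8 in UNC1999 and 25.8 in DMSO. The fragment next to it, chr4:12722662-12727690, scored 19.9 in UNC6852, 12.3 in UNC1999 and 9.83 in DMSO. In chr4:12769700-12890790, 660.3 to 776 kb away, 18 fragments had 14 calls in UNC6852, 12 in UNC1999 and 11 in DMSO, and 8 were called in all 3. This summit, chr4:12845967-12850969, scored 23.2 in UNC6852, 25.5 in UNC1999 and 17.8 in DMSO, and the fragment chr4:12853226-12858777 scored 14.4 in UNC6852, 13.7 in UNC1999 and 16.9 in DMSO. Among the 13 pairs called in all 3, UNC6852 scored above DMSO in 8 and below in 5, and UNC1999 above in 5 and below in 8.

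Between these peaks and the gene, all NKX3-2 pairs scored below 10 in every profile. In chr4:13151368-13205398, 346 to 395 kb away, 9 fragments had 6 calls in UNC6852, 4 in UNC1999 and 2 in DMSO, and 0 were called in all 3. The largest positive difference in UNC6852 was 498 kb away, at 5.33 in UNC6852, 3.39 in UNC1999 and 0.48 in DMSO. For UNC1999 it was 589.9 kb away, at 1.39 in UNC6852, 6.19 in UNC1999 and 0 in DMSO. The farthest fragment, at 873 kb, scored 6.38 in UNC6852, 0.65 in UNC1999 and 7.59 in DMSO, the largest negative difference in UNC1999. A captured fragment amid the second peak, chr4:12852927-12853225, scored 9.06 in UNC6852, 0.054 in UNC1999 and 1.48 in DMSO, although the longer fragments on either side were called in all 3. In that pair, alone among the 47, NKX3-2 was the other end.

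**Figure D4:**
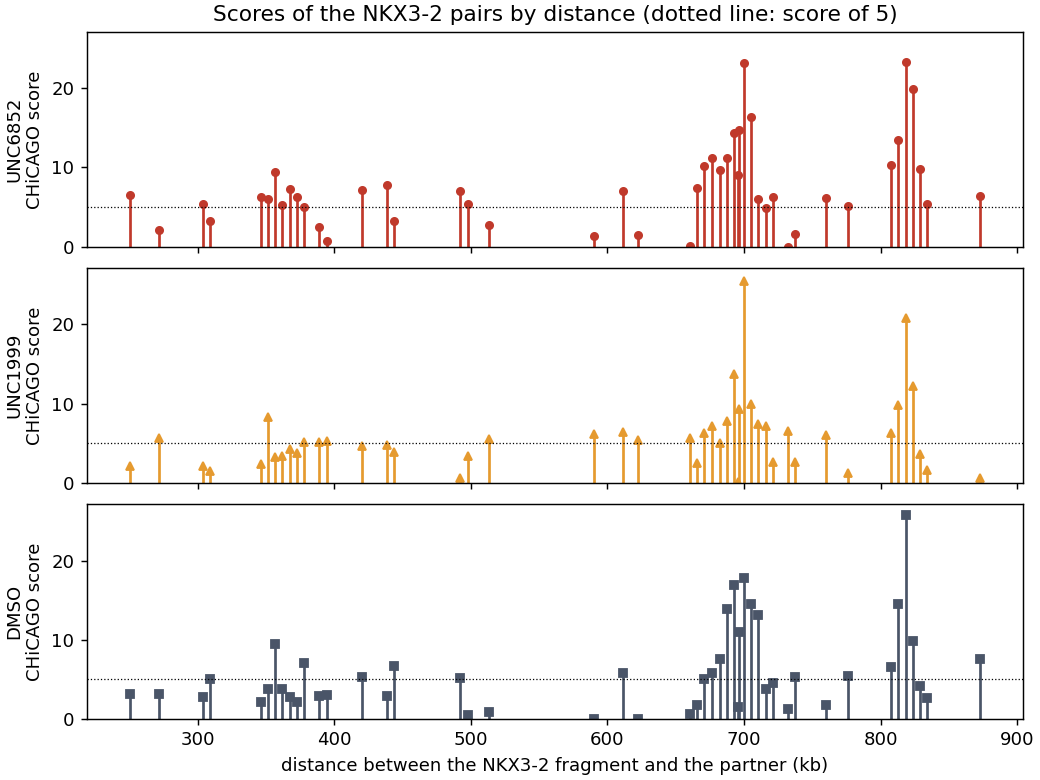
CHiCAGO scores (vertical axes) of the 47 NKX3-2 pairs by distance between the NKX3-2 fragment and its partner in kb (horizontal axis), in the UNC6852, UNC1999 and DMSO profiles from top to bottom, with a dotted line at 5. All 3 profiles carry peaks near 700.1 and 818 kb, with summits of 17.8 to 25.8.

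**Figure D5:**
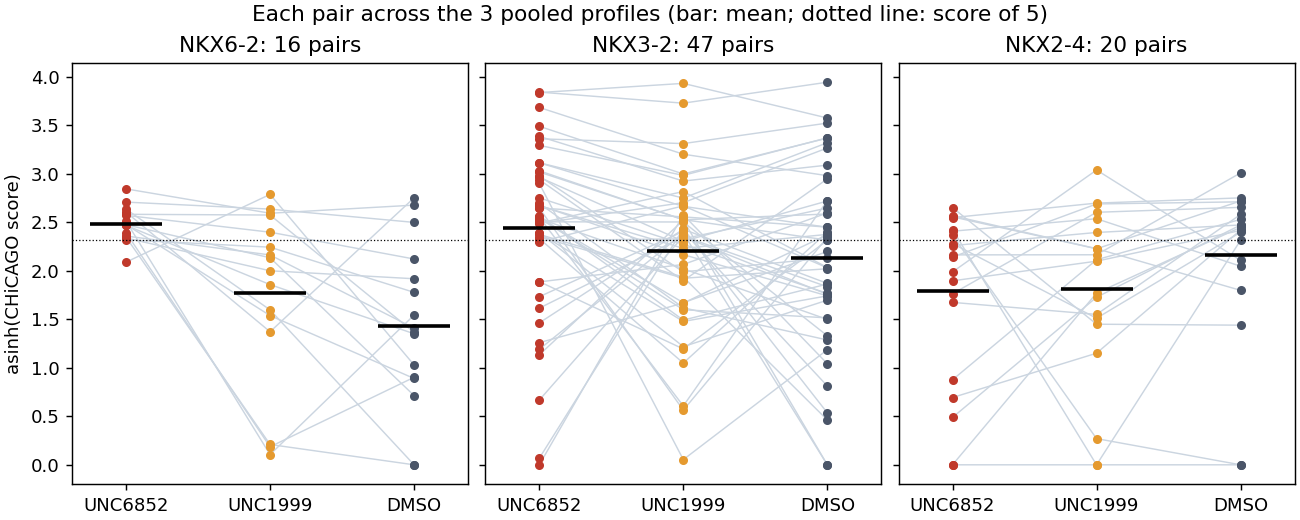
asinh(CHiCAGO score), without unit (vertical axis), of every pair of NKX6-2, NKX3-2 and NKX2-4 in the UNC6852, UNC1999 and DMSO profiles; grey lines join the values of 1 pair, black bars are means over pairs, and the dotted line marks a score of 5. The means are 2.48, 1.77 and 1.43 for NKX6-2, 2.44, 2.20 and 2.13 for NKX3-2, and 1.79, 1.81 and 2.16 for NKX2-4, in that order of profiles.

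NKX2-5 (chr5:173232109-173235206), the cardiac homeobox gene, had no bait and 2 pairs, each on the fragment chr5:173229753-173234541. With NEURL1B, 548 kb away, it scored 2.13 in UNC6852, 0 in UNC1999 and 5.78 in DMSO. The other pair, with CAST at 76.6 Mb, scored 6.02 in UNC6852 and 0 in UNC1999 and DMSO. NKX2-6 (chr8:23701740-23706756), a relative that acts in the pharynx and the cardiac outflow tract in mouse, had 13 pairs from 2 baits and 1 other fragment. Each of its 13 pairs was called in a single profile, 6 in UNC6852, 2 in UNC1999 and 5 in DMSO, so 0 of 5 DMSO calls recurred in either treated profile (exact interval 0% to 52.2%). Median scores were 4.76 in UNC6852, 2.47 in UNC1999 and 2.86 in DMSO. On the asinh scale the means were 1.94 in UNC6852, 1.32 in UNC1999 and 1.79 in DMSO, and 10 of 13 pairs were lower in UNC1999. The UNC1999 difference, -0.47, was 0.004 with neighbouring other ends merged. Only 2 of the 13 pairs entered the list through UNC1999, so part of its lower scores is built in.

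Most NKX2-6 contacts, 9 of 13, led to chr8:23448590-23485137 about ENTPD4, which encodes a nucleotide-splitting enzyme, 219.6 to 251 kb away. There, 4 pairs were called in UNC6852, 0 in UNC1999 and 5 in DMSO. The UNC1999 scores of these 9 pairs ran from 0 to 2.70, with 0 to 10.5 in UNC6852 and 0.54 to 8.17 in DMSO. Each of these pairs entered the list through UNC6852 or DMSO alone, so higher top scores there than in UNC1999 are built into the list. Called fragments lay side by side but differed between the baits. From the bait chr8:23705543-23706265, the partner chr8:23474758-23480105 scored 10.5 in UNC6852, 2.49 in UNC1999 and 4.42 in DMSO. From chr8:23702060-23702302 the same partner scored 2.29 in UNC6852, 2.47 in UNC1999 and 7.59 in DMSO. UNC6852 was therefore above DMSO from 1 bait and below it from the other. The pair with an end of ENTPD4 scored 2.51 in UNC6852, 0 in UNC1999 and 8.17 in DMSO. Outside this region, a fragment 713 kb away gave the largest positive difference in UNC1999, at 0.42 in UNC6852, 6.23 in UNC1999 and 0.43 in DMSO.

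NKX2-3 (chr10:99532942-99536524), a factor of gut mesenchyme and spleen, had 7 pairs, 4 from 2 baits and 3 from the fragment that ends at the cut site shown above. Calls numbered 2 in UNC6852, 3 in UNC1999 and 3 in DMSO. That fragment met a bait in PAX2, a paired-box gene of kidney and hindbrain, 1207 kb away, at 8.30 in UNC6852, 0 in UNC1999 and 7.14 in DMSO. It met an end of WNT8B, a WNT ligand gene of the forebrain, at 0.48 in UNC6852, 0 in UNC1999 and 6.01 in DMSO, and a bait nearest to VAX1, 17.6 Mb away, at 6.26 in DMSO and 0 in both treated profiles. All 3 pairs of this fragment were called in DMSO and stood at 0 in UNC1999. By contrast the 3 UNC1999 calls came from the baits, with SLC25A28 (1.14 in UNC6852, 5.06 in UNC1999, 1.68 in DMSO), CWF19L1 and KIF11. The mean asinh scores of NKX2-3 were 0.94 in UNC6852, 1.02 in UNC1999 and 1.28 in DMSO, and 3 pairs stood at 0 in UNC6852, 4 in UNC1999 and 3 in DMSO. The differences of -0.34 and -0.26 turned with the gene at the bait only (4 pairs), to 0.50 in UNC6852 and 1.47 in UNC1999. None of these 4 pairs was called in DMSO, whereas all 3 pairs of the other fragment were. The turn of sign and the contrast between that fragment and the baits are therefore in part built into the list. The UNC6852 difference was 0.03 with pairs of at most 2 Mb.

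In order of mean asinh score in DMSO, the genes ran NKX2-4 (2.16), NKX3-2 (2.13), NKX2-6 (1.79), NKX2-2 (1.53), NKX6-2 (1.43), NKX6-1 (1.40), NKX2-3 (1.28) and NKX2-5 (1.23). Spread between pairs of a gene (SD 0.82 to 1.74 in DMSO) was wider than the step between any neighbours in this order. The first place of NKX2-4 follows in part from the threshold for listing, since 9 of its 20 pairs were called in DMSO alone. In UNC6852 NKX6-2 came first at 2.48, and its pairs varied least, with an SD of 0.18 in UNC6852, 0.90 in UNC1999 and 0.84 in DMSO. Since 15 of its 16 pairs are called in UNC6852, 10 of them there alone, this place and narrow spread follow in part from the threshold for listing. Measured by distance between the 3 mean asinh scores among 1565 genes with at least 10 pairs, the genes most like NKX3-2 were FGF20 and FOXA1, each at 0.072. Nearest to NKX2-2 were LPGAT1 and LMO1, to NKX2-4 ADRA1A and CHRD, to NKX2-6 STRADA and COL14A1, and to NKX6-1 DOK6 and C1QL2. INPP5A matched NKX6-2 at 0, being the same pairs, and DOCK3 followed at 0.20. These are likenesses of 3 pooled values.

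Related genes were counted in fixed lists, with a gene counted where it had at least 3 pairs. Among all 4979 such genes, 56.4% had a higher mean asinh score in UNC6852 than in DMSO and 49.1% in UNC1999, with median differences of 0.069 and -0.008. Of the 7 members counted, 4 were higher in UNC6852 and 3 in UNC1999 (medians 0.14 and -0.17). The other NKX genes gave 4 of 5 higher in UNC6852 and 3 of 5 in UNC1999, from NKX6-3 at 1.24 (3 pairs) to NKX1-2 at -0.58 (4 pairs) in UNC6852. Ventral neural tube genes gave 5 of 11 and 6 of 11, with OLIG2, a motor neuron and oligodendrocyte factor, at 0.47 and DBX2 at -0.47 in UNC6852. Heart genes gave 6 of 10 for each compound, from MEF2C at 0.50 to TBX20 at -1.06 in UNC6852. Pancreas genes gave 6 of 11 and 7 of 11, with NEUROD1, a factor of endocrine and neuronal differentiation, highest at 2.03 (4 pairs) in UNC6852. Somite and skeleton genes, the setting of NKX3-2, gave 4 of 5 for each compound, from NOG at 0.43 to PAX9 at -0.12 in UNC6852. Gut, spleen and tooth genes, the setting of NKX2-3, gave 4 of 6 and 5 of 6, from HOXA13 at 0.57 to TCF21 at -0.33 in UNC6852. No list median exceeded 0.33 in UNC6852 or 0.19 in UNC1999.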

How the data were processed

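PECHi-C was done on 45 HNES1 libraries, 15 per condition. The deposited values are CHiCAGO scores, 1 per pair and condition, pooled over its libraries per the file headers; scores are never negative and the profiles were not scaled to each other. The deposited table also gives the distance between fragments in bp, another kind of value, which was used to class pairs. The build is GRCh38 per the submitters' processing notes. The aligner and the version of the caller are not given in the sources used here. Read depth is unknown, so no floor or read-based interval was given.

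A pair was called at 5 or more. Genes came from RefSeq (GRCh38.p14, 20050 protein-coding genes). Differences were taken on asinh(score), and a shift was 0.5 or more. Partner fragments at most 20 kb apart were joined into regions. Pairs to name were, per gene, the 3 with the highest mean score, the largest positive and negative difference per compound, those called in all 3 profiles with another gene's end, and those joining 2 members; other pairs given with values, the regions and the comparison of neighbouring fragments were chosen after the values were seen. The members and gene lists were chosen with earlier results of these data known. Alternatives were thresholds of 7 and 10, equal numbers of calls, gene ends within 0 or 5000 bp, distance limits, merged or single-counted pairs, the gene at 1 end, omission of NKX3-2, log2, quantile normalization and pairs whose scores averaged 5 or more. A listed gene that the naming rule picks is not reported here. The calculation was tested on simulated data. Python 3.11.15, numpy 2.4.6, pandas 2.3.3, scipy 1.17.1 and matplotlib 3.10.9 were used.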

Additional observations from a re-analysis of the deposited data

Results flagged for a closer look

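Pairs between chromosomes were not part of the cis comparisons. At the 8 NKX genes 55 such pairs were called in UNC6852 cells and 70 in UNC1999 cells, against 47 in DMSO cells, of 172 listed. Over all pairs between chromosomes, the number of calls relative to DMSO was 1.15 for UNC6852 and 1.21 for UNC1999. No spread between replicates was available for these counts.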

How the results depend on the processing

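The scores are pooled over replicates, so the precision of a difference between conditions is unknown, and the number of pairs does not supply it. The read depth behind a score is also unknown, and leaving out replicates could not be run. No paired analysis was possible because the replicates that share numbers were pooled into 1 score per condition. Of the main results under the alternatives, 86 stayed within their limits and 33 did not. The 86 include alternatives that left all 163 pairs as they were, namely pairs of at least 20 kb and captured pairs counted once. The shortest of the 163 pairs was 77.7 kb long. Values under these alternatives could not differ from the main analysis, so they do not bear on how stable the results are. The 33 were as follows. At a threshold of 7 calls numbered 30 in UNC6852, 23 in UNC1999 and 28 in DMSO. At 10 they were 14 in UNC6852, 5 in UNC1999 and 12 in DMSO, with 66.7% of DMSO calls also in UNC6852 and 80% of UNC1999 calls also in UNC6852. With gene ends within 0 bp calls numbered 7 in UNC6852, 0 in UNC1999 and 1 in DMSO, with 0% of DMSO calls shared with either, a UNC6852 median difference of 1.30, and 3 genes higher than DMSO in UNC6852 and 1 in UNC1999. Within 5000 bp, calls numbered 190 in UNC6852, 169 in UNC1999 and 151 in DMSO, and 5 genes were higher in UNC1999. With neighbouring other ends merged, 54.9% of DMSO calls were also in UNC6852. Counting only pairs with the NKX gene at the other end, there were 16 calls in UNC6852, 9 in UNC1999 and 13 in DMSO, 23.1% of DMSO calls were also in UNC6852, 55.6% of UNC1999 calls were also in UNC6852, and 1 gene was higher in UNC1999. Without NKX3-2 calls numbered 53 in UNC6852 and 40 in UNC1999, and the shares were 19.1% (DMSO in UNC6852), 17.0% (DMSO in UNC1999) and 27.5% (UNC1999 in UNC6852). Over pairs whose scores averaged 5 or more, 1 gene was higher in UNC1999. The main analysis had 5 genes higher in UNC6852 and 3 in UNC1999. For single genes, 15 of 174 differences changed sign, 11 of them within the interval of the median over the gene's own pairs. The 174 include alternatives that left a gene's pairs as they were, such as the omission of NKX3-2 for the other genes. NKX6-1 became 0.42 in UNC6852 and 0.19 in UNC1999 within 5000 bp. NKX2-3 became 0.50 in UNC6852 and 1.47 in UNC1999 with the gene at the bait, where no pair was called in DMSO. The UNC6852 difference of NKX2-5 was -0.96 with pairs of at most 2 Mb, since its second pair is longer. Quantile normalization left NKX6-2 at 0.99 and 0.34, NKX3-2 at 0.24 and 0.07 and NKX2-4 at -0.45 and -0.34 in UNC6852 and UNC1999. Apart from what these alternatives change by their own construction, the cause was not tested.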
